A study of Rattus norvegicus with 6 samples.

Results

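The granins and prohormone processing genes are a group of 10 genes whose proteins fill the dense-core secretory granules of endocrine cells and cut the hormone precursors stored there. The group was given by name: the granins Chga, Chgb, Scg2, Scg3 and Vgf, the chaperone Scg5, the convertase inhibitor Pcsk1n, the convertases Pcsk1 and Pcsk2, and the carboxypeptidase Cpe. Of these, 9 were matched by name to a row among the 32883 genes of the count table. Pcsk1n was matched to no row and was not analysed here. Of the 9 genes, 7 passed the filter on low counts and were tested between the groups, while Pcsk1 and Pcsk2 did not pass it.

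The source of all libraries was GH4C1, an established line of rat pituitary cells from the lineage that makes growth hormone and prolactin. All cells were labelled wild type, were grown with horse and fetal calf serum, and were crosslinked by psoralen, which links base-paired strands. RNA was then pulled down with oligo pool A or oligo pool B, with 3 libraries each, in a search for RNAs directly bound to Neat1, the noncoding RNA that scaffolds nuclear bodies called paraspeckles. The labels do not say what the oligonucleotides of either pool bind or whether a pool was a control. They also do not say whether the libraries of a pool came from separate cultures, so the p-values measure the spread between these libraries, which may be technical.

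A count in such a library depends on how abundant an RNA was and on how well it was retrieved. Input RNA was not analysed here, so abundance and retrieval cannot be told apart. Total counts ranged from 1826390 to 3685899, a 2.02-fold range, and values are given as CPM, counts per 1000000 counts of the library. A count of 0 allows up to 3 counts, or 0.814 to 1.64 CPM. Intervals on counts and these floors cover counting error only. The line was checked against its defining markers. Of 8 genes of the growth hormone and prolactin lineage, all 8 were detected and tested, and their summed level was 1340 to 1408 CPM with pool A and 931 to 1198 CPM with pool B. The 7 markers of other pituitary cells summed to 13.4 to 26.0 CPM with pool A and to 48.2 to 54.1 CPM with pool B, with Tshb and Fshb at 0 in every library. Most of that sum was Lhb, the luteinizing hormone subunit gene. Of 5 markers of non-endocrine cells, 3 had a row, and their sum did not exceed 5.65 CPM. Whether the difference in the sum of other pituitary markers had a part in the results was not tested.

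Regulated endocrine secretion starts in the trans-Golgi network, where granins aggregate with hormones at mildly acidic pH and high calcium and are packed into granules. Within the granule, convertases of the Pcsk family cut precursors after pairs of basic residues, and Cpe then trims the exposed basic residues from the new ends. Scg5 assists the maturation of Pcsk2, and Pcsk1n binds and inhibits Pcsk1. Somatotrophs and lactotrophs use this granule route for growth hormone and prolactin.

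Several genes of this group are textbook targets of cAMP signalling through the cAMP response element, whose palindromic form is TGACGTCA. RefSeq promoter windows of the GRCr8 assembly, from 250 bases before to 50 bases after the annotated start, were matched by symbol for 8 of the 10 genes. Chga and Pcsk1 had no matched window and were not searched. The palindrome was found in 2 of these 8 windows, those of Scg2 and Vgf, and in 1.83% of all 33469 windows. The stretches around it are shown because Scg2 and Vgf are the members whose windows carry it. The palindrome is in capitals, with 20 bases on either side. They lie on the minus strand at chr9:88256962-88257009 and chr12:25277083-25277130.
Scg2: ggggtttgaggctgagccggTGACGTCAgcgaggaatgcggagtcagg
Vgf: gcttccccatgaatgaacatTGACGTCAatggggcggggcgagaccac
The palindrome of Scg2 begins 123 bases before the annotated start and that of Vgf 90 bases before it. The shorter core TGACG, searched on both strands and contained in the palindrome, was found in the windows of 6 of the 8 genes, namely Scg2, Scg3, Scg5, Vgf, Cpe and Pcsk2, and in 21.2% of all windows. The windows of Chgb and Pcsk1n held no TGACG on either strand. A match describes the letters only, and the pull-down does not read promoters.

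Between the pools, Chgb differed in the opposite direction from the other members that passed the threshold. Chgb was 7.68-fold higher with pool B. Scg2, Cpe and Chga were 1.71-fold, 1.56-fold and 1.54-fold higher with pool A. Scg3, Scg5 and Vgf did not pass the threshold. The test was edgeR's quasi-likelihood test with Benjamini-Hochberg adjustment over 11582 genes and a threshold of 0.05. With it, 3 of the 7 tested members were higher with pool A, where 18.6% of all tested genes were, and 1 was higher with pool B, where 22.0% of all tested genes were. These background numbers, 2154 and 2546 genes, depended on the scaling, with 1709 and 2922 under total counts alone and 2515 and 2251 under upper-quartile factors. In either direction 4 of 7 were called, against 40.6% of all tested genes and 61.7% of the 4634 genes with a mean of at least 100 counts, so the number of calls does not set the members apart. The CPM ranges of the pools did not overlap for 4 of the 7 members, the same 4 genes, and for 49.1% of all tested genes. The median log2 fold change of the 7 members, pool A over pool B, was 0.62, and that of all tested genes was 0.02. Without pool B replicate 2, Vgf was also called higher with pool A. Pcsk1 was called in that fit too, but it could enter only through pool A, where its counts were high, and is not counted as support.

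**Figure D1:**
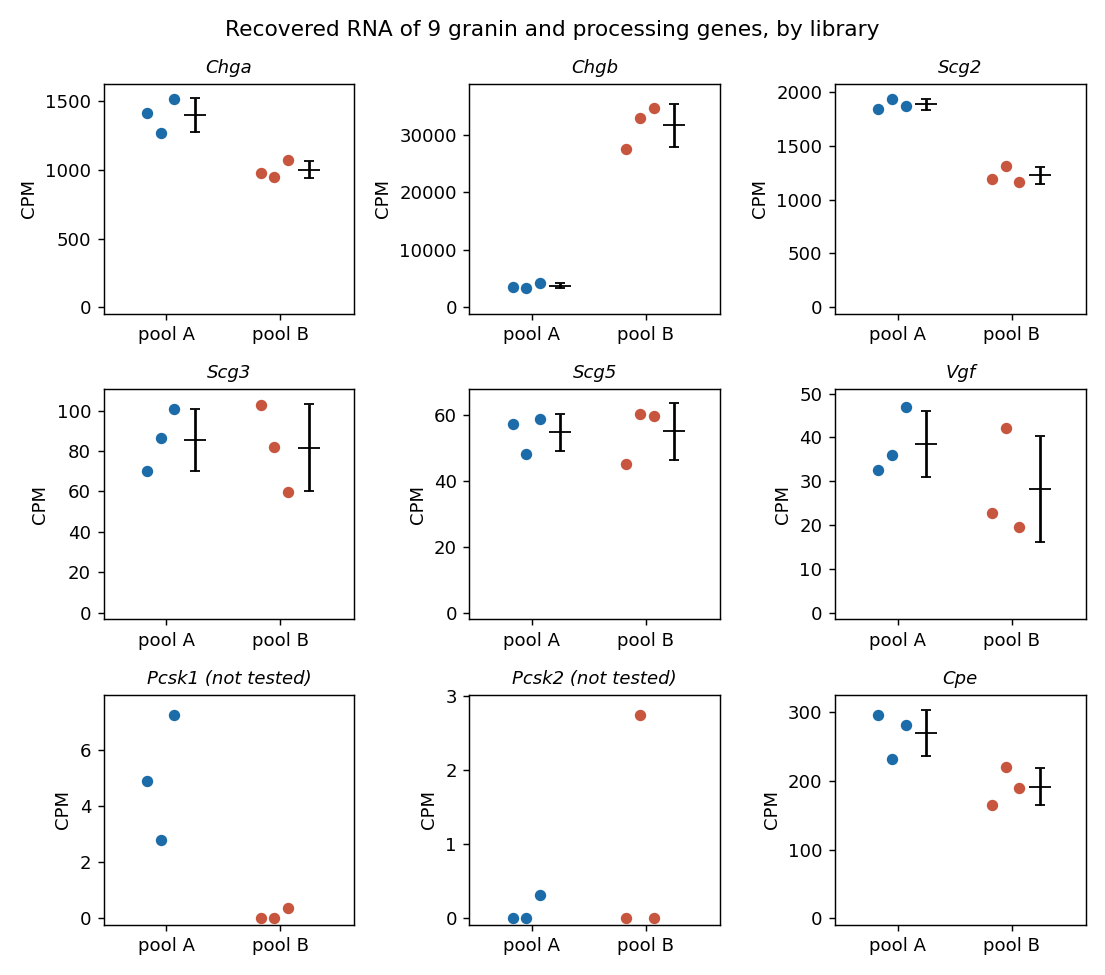
CPM of the 9 genes with a row, on linear axes that differ between panels. Points are libraries, and for the 7 tested genes bars give the mean and SD over 3 libraries. The Chgb points of pool B lie between 27494 and 34676 CPM and those of pool A between 3411 and 4225 CPM. The Scg3, Scg5 and Vgf points of the pools overlap.

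Chgb (ENSRNOG00000021269) encodes chromogranin B, an acidic calcium-binding granin. Its level was 3590, 3411 and 4225 CPM in pool A replicates 1, 2 and 3, and 27494, 32894 and 34676 CPM in pool B replicates 1, 2 and 3. All pool B libraries were far above all pool A libraries. The mean was 3742 ± 428 CPM (SD, n = 3) over the pool A libraries, against 31688 ± 3740 CPM (SD, n = 3) over the pool B libraries. This is a log2 fold change of -2.94 ± 0.17 (SE; 95% interval -3.28 to -2.60; edgeR adjusted p = 4.86e-14). The log2 fold change of Chgb was larger in size than that of 97.7% of all tested genes, and 149 tested genes had a lower value. Within each pool the coefficient of variation of Chgb was 11.4% and 11.8%, where counting error alone gives 0.936% and 0.363%.

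Chgb took a sizeable part of the pool B libraries. It held 2.75% (95% Wilson interval 2.73% to 2.77%), 3.29% (3.26% to 3.32%) and 3.47% (3.45% to 3.49%) of the counts of pool B replicates 1, 2 and 3. In pool A it held 0.359% (0.353% to 0.365%), 0.341% (0.334% to 0.348%) and 0.423% (0.415% to 0.430%). The share of the 9 genes together was 0.748% ± 0.056 (SD, n = 3) in pool A libraries, against 3.43% ± 0.38 (SD, n = 3) in pool B libraries. Without Chgb the order turned: the 8 other genes held 0.374% ± 0.013 (SD, n = 3) in pool A libraries, against 0.258% ± 0.008 (SD, n = 3) in pool B libraries. The group's higher total with pool B was carried by Chgb alone. When the members were left out of the library sizes, the log2 fold change of Chgb was again -2.94. TMM factors were estimated anew in that fit, which left little room for a change. With total counts alone it was -3.08.

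**Figure D2:**
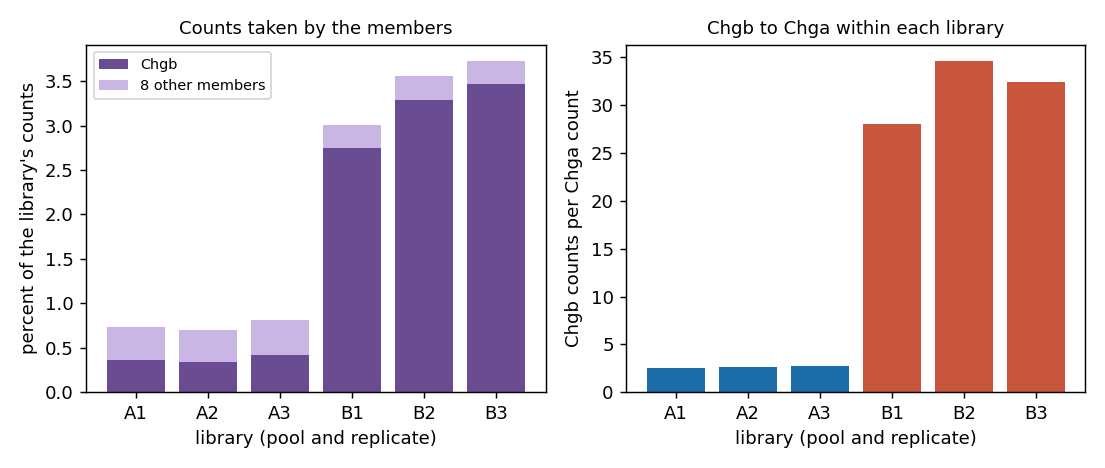
Left, percent of each library's counts held by Chgb (dark) and by the 8 other members (light). Right, counts of Chgb per count of Chga in each library. Libraries are labelled by pool and replicate. Chgb makes up nearly all of the bar with pool B, and the ratio to Chga lies between 28.1 and 34.6 there against 2.54 to 2.79 with pool A.

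A ratio of 2 genes within a library does not depend on how libraries are scaled. Chgb had 2.54, 2.69 and 2.79 counts per count of Chga in pool A replicates 1, 2 and 3. In pool B replicates 1, 2 and 3 it had 28.1, 34.6 and 32.5 counts per count of Chga. The ranges did not overlap. The mean log2 ratio was 1.42 ± 0.07 (SD, n = 3) in pool A libraries, against 4.98 ± 0.16 (SD, n = 3) in pool B libraries, an 11.8-fold change. The exact two-sided permutation test gave p = 0.1, the smallest value that 3 against 3 libraries allow, and 0.2 after adjustment over the 2 ratios that were run. Against each of the other tested members, the log2 ratio of Chgb was lower with pool A by a similar amount. The differences ran from -3.70 for Scg2 to -3.08 for Scg5. They restate the change of Chgb beside the smaller changes of the other members and are not further tests.

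The 2 rows that follow Chgb in the table were higher with pool A. They are named here after their values were seen, by row order alone, and genome positions were not compared. Trmt6, a subunit of a tRNA methyltransferase, had a log2 fold change of 3.52 ± 0.17 (SE; edgeR adjusted p = 3.71e-15), at 221 ± 19 CPM (SD, n = 3) against 21.5 ± 1.8 CPM (SD, n = 3). Mcm8, a helicase of DNA repair, had one of 2.33 ± 0.22 (SE; edgeR adjusted p = 1.09e-09). The libraries were strand-specific, but the labels do not say whether counting used strand. Reads of overlapping genes on opposite strands may therefore not have been separated. Whether Chgb overlaps Trmt6 or Mcm8 was not examined, and whether counting had a part in these values was not tested.

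Scg2 (ENSRNOG00000015055) encodes secretogranin II, the precursor of the peptide secretoneurin. Its level was 1843, 1941 and 1874 CPM in pool A replicates 1, 2 and 3, and 1197, 1316 and 1167 CPM in pool B replicates 1, 2 and 3. The pools did not overlap, and the pool A libraries lay close together, with a coefficient of variation of 2.64%. The difference was 0.77 ± 0.13 on the log2 scale (SE; 95% interval 0.50 to 1.04; edgeR adjusted p = 2.25e-05).

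Chga (ENSRNOG00000052549) encodes chromogranin A, a granin that promotes granule formation and gives rise to several peptides. It had 1412, 1269 and 1512 CPM in pool A replicates 1, 2 and 3, and 979.9, 950.5 and 1068 CPM in pool B replicates 1, 2 and 3. Every pool A library was above every pool B library, by 0.63 ± 0.13 on the log2 scale (SE; 95% interval 0.37 to 0.89; edgeR adjusted p = 0.000228). Chga and Chgb belong to the same protein family and have related granule functions, yet their intervals lie on opposite sides of 0.

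Cpe (ENSRNOG00000043387) is the member that acts after the convertases. Its level was 296, 232 and 282 CPM in pool A replicates 1, 2 and 3, and 166, 221 and 190 CPM in pool B replicates 1, 2 and 3. The lowest pool A library was just above the highest pool B library. This gave a log2 fold change of 0.64 ± 0.14 (SE; 95% interval 0.35 to 0.93; edgeR adjusted p = 0.000596). The increases of Scg2, Chga and Cpe were modest for this comparison: among genes called higher with pool A, 22.4%, 11.2% and 11.9% had a smaller change.

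**Figure D3:**
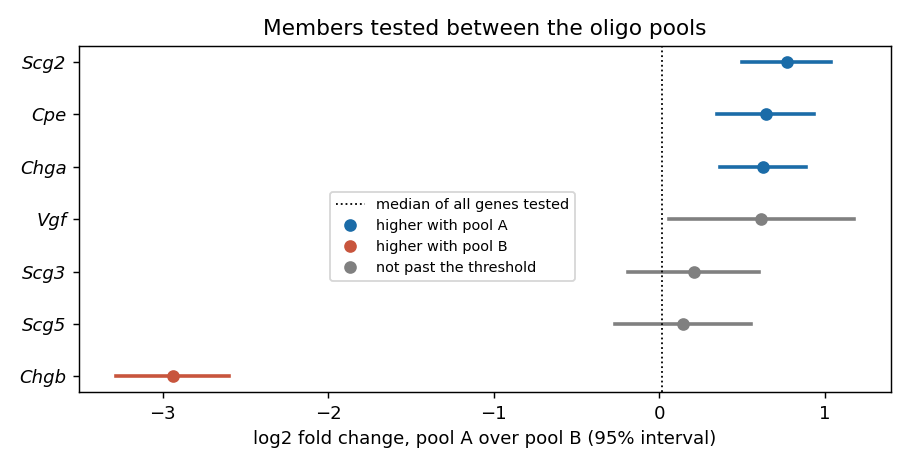
Log2 fold change of pool A over pool B with its 95% interval for the 7 tested members; the dotted line is the median of all tested genes, 0.02. Chgb lies at -2.94, and the other 6 members lie between 0.14 and 0.77.

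Vgf (ENSRNOG00000001416), a granin-like precursor induced by nerve growth factor, had 32.6, 36.0 and 47.1 CPM in pool A replicates 1, 2 and 3. In pool B replicates 1, 2 and 3 it had 22.8, 42.2 and 19.7 CPM. Pool B replicate 2 lay among the pool A libraries, so the pools overlapped. This is 0.62 ± 0.27 on the log2 scale (SE; 95% interval 0.06 to 1.17; edgeR adjusted p = 0.0715). That size is close to those of Chga and Cpe, on far fewer counts. The call depended on the settings: Vgf passed without pool B replicate 2 (log2 fold change 0.98, adjusted p 0.00721), with upper-quartile factors (0.0343) and with limma-voom (0.0317), within a range of 0.00721 to 0.299 over 15 alternatives.

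Scg3 (ENSRNOG00000010784) encodes secretogranin III, which tethers chromogranin A to cholesterol-rich granule membrane. It had 70.0, 86.2 and 101 CPM in pool A replicates 1, 2 and 3, and 103, 82.1 and 59.8 CPM in pool B replicates 1, 2 and 3. The ranges of the pools overlapped. The difference was 0.21 ± 0.19 on the log2 scale (SE; edgeR adjusted p = 0.425), and the 95% interval of -0.19 to 0.60 leaves room for a change up to 1.52-fold in favour of pool A.

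Scg5 (ENSRNOG00000007542), the chaperone of Pcsk2, had 57.2, 48.2 and 58.7 CPM in pool A replicates 1, 2 and 3. In pool B replicates 1, 2 and 3 it had 45.0, 60.2 and 59.8 CPM. The pools overlapped, with means of 54.7 ± 5.6 CPM (SD, n = 3) for pool A, against 55.0 ± 8.7 CPM (SD, n = 3) for pool B. After TMM scaling the difference was 0.14 ± 0.20 on the log2 scale (SE; 95% interval -0.27 to 0.55; edgeR adjusted p = 0.608).

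The convertases themselves were near the detection limit. Pcsk1 (ENSRNOG00000011107) had 18, 7 and 23 counts in pool A replicates 1, 2 and 3 and 0, 0 and 1 count in pool B replicates 1, 2 and 3. Its ratio of pooled CPM, pool A over pool B, was 37.8, with an exact 95% counting interval of 6.47 to 1524. Pcsk1 was not tested in the main comparison. It entered the fit in 5 alternatives, with no filter and in 4 fits that left out a library, with log2 fold changes from 4.36 to 6.87. With the filter it could enter only through pool A, where its counts were high, so its call there supports nothing, and such a fitted value depends on how near-zero counts are treated.

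Pcsk2 (ENSRNOG00000005438) had 1 count in pool A replicate 3, 5 counts in pool B replicate 2 and 0 in the other libraries. No direction can be read from these counts, nor from the within-library ratio of Pcsk2 to its chaperone Scg5, which the pseudocount sets in the 4 libraries without a count. Scg5 had at least 110 counts in every library.

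Other genes of the secretory route were examined as 3 lists: further processing enzymes, proteins of granule membrane and biogenesis, and peptide precursors. Among the further processing enzymes, 14 of 18 were tested. Of these, 3 were higher with pool A, where 18.6% of all tested genes were, 3 were higher with pool B, where 22.0% were, and 8 did not pass. Among the tested enzymes, Ctsl, a cysteine protease that can also cut precursors inside granules, had the largest change. It stood at 51.7 ± 2.7 CPM (SD, n = 3) for pool A, against 699 ± 47 CPM (SD, n = 3) for pool B, which is -3.61 ± 0.14 on the log2 scale (SE; edgeR adjusted p = 4.89e-17). Ece2, an endothelin-converting metalloprotease, was also higher with pool B, with a log2 fold change of -1.93 ± 0.16 (SE). Cpd, a carboxypeptidase of the trans-Golgi network with the same cleavage preference as Cpe, was higher with pool A, with 120 ± 13 CPM (SD, n = 3) against 38.0 ± 3.0 CPM (SD, n = 3) and a log2 fold change of 1.81 ± 0.18 (SE). Nrdc, Furin and Pam were the other calls, named after their values were seen, with log2 fold changes of 1.62, 0.84 and -0.63. Furin is the convertase of the constitutive route, and Pam amidates the ends of peptides. Pcsk4, Pcsk5, Pcsk6 and Pcsk7, the other tested convertases of the Pcsk family and also named after their values were seen, had log2 fold changes from -0.45 to 0.26 and did not pass. The number higher with pool B was 5 without pool A replicate 3. The list's median log2 fold change was 0.15.

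Of 13 genes of granule membrane and biogenesis, 11 were tested, 5 were higher with pool A, 3 were higher with pool B and 3 did not pass. In either direction 8 of 11 were called, against 40.6% of all tested genes and 61.7% of those with a mean of at least 100 counts. Hid1, needed for sorting at the trans-Golgi network, had a log2 fold change of 0.86 ± 0.20 (SE). Ccdc186 and Ica1, which take part in granule maturation, had log2 fold changes of -0.98 ± 0.19 and -0.85 ± 0.16 (SE). The other calls, named after their values were seen, were Nucb2 (log2 fold change 0.81), the granule membrane protein gene Ptprn (0.65), the priming factor gene Cadps (0.63), Resp18 (0.57) and Pick1 (-0.67). The number higher with pool A fell to 3 without pool A replicate 1 and to 3 without pool B replicate 3. Under the replicate block and with total counts alone it was 4, with Resp18 losing its call. Resp18 also lost its call without pool A replicate 1 (edgeR adjusted p = 0.231) or replicate 2 (0.0511). The same held without pool B replicate 1 (0.127) or replicate 3 (0.110). The CPM ranges of the pools overlapped for Ptprn, Nucb2 and Resp18, and not for the other called genes of this list. The list's median log2 fold change was 0.024, and that of all tested genes was 0.015.

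Of 23 peptide precursor genes, 22 had a row, 13 of these were at 0 in every library, and 5 were tested. Of the 5, 1 was higher with pool A, where 18.6% of all tested genes were, and 1 with pool B, where 22.0% were. Prl, the prolactin gene and a main cargo of these granules, was higher with pool A, with 713 ± 41 CPM (SD, n = 3) against 445 ± 56 CPM (SD, n = 3), a log2 fold change of 0.83 ± 0.14 (SE; edgeR adjusted p = 1.26e-05). The 3 that did not pass are named after their values were seen. Gh1, the growth hormone gene, had a log2 fold change of 0.18 ± 0.14 (SE; 95% interval -0.11 to 0.48), and those of Nmb and Cartpt were -0.69 ± 0.72 and 0.63 ± 0.67 (SE). Lhb was higher with pool B, with a log2 fold change of -1.68 ± 0.28 (SE), at 42.0 ± 2.7 CPM (SD, n = 3) there against 11.9 ± 3.6 CPM (SD, n = 3).

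**Figure D4:**
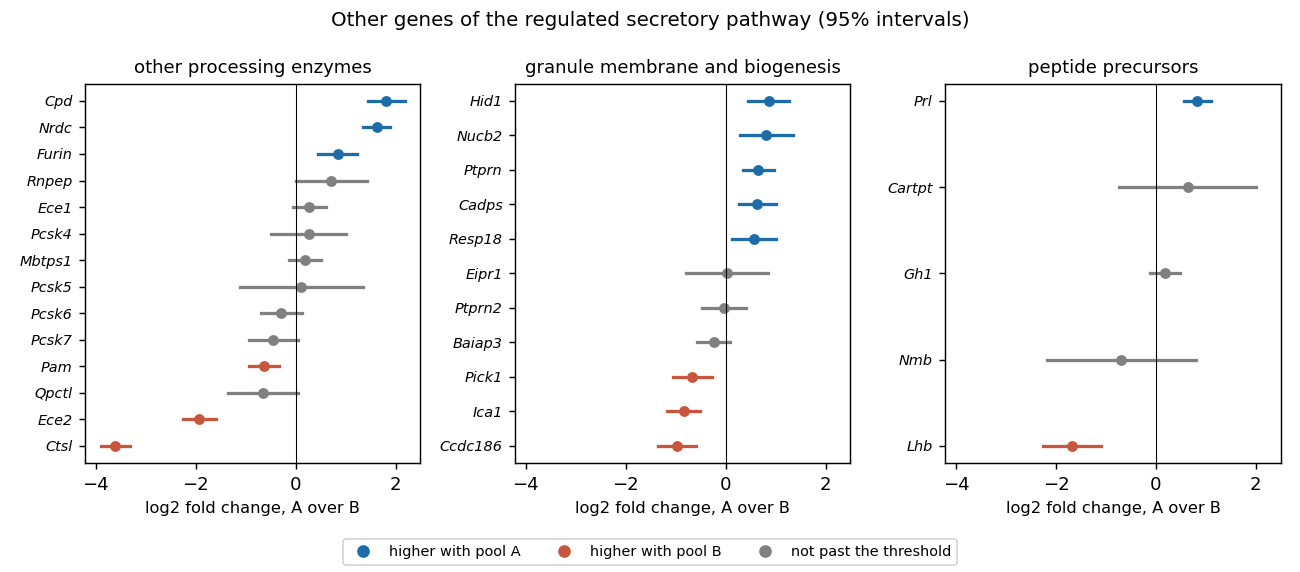
Log2 fold change of pool A over pool B with 95% intervals for the tested genes of 3 lists, coloured by call. Ctsl at -3.61 and Cpd at 1.81 mark the ends of the processing enzymes, and the granule membrane genes lie between -0.98 and 0.86.

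The genes whose profile over the 6 libraries was nearest to that of Chgb were Haus8, a subunit of the augmin complex of the spindle, the zinc finger gene Zfp646, and Nolc1, a nucleolar phosphoprotein gene. Likeness was the Euclidean distance between log2 CPM profiles, each centred on its own mean, over 10486 candidate genes with symbols. The distances were 0.0779, 0.120 and 0.232. Haus8 stood at 110 ± 16 CPM (SD, n = 3) for pool A, against 936 ± 133 CPM (SD, n = 3) for pool B. For Scg2, which had the largest change in favour of pool A among the 7 tested members, the nearest were Ext2, Taf2 and Rps19bp1, at distances of 0.104, 0.110 and 0.123. None of the 6 nearest genes is on the 3 secretory lists. Those lists held only 14, 11 and 5 tested genes, against 10486 candidates, so little can be read from this.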

How the data were processed

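Per the submitters' processing notes, STAR and featureCounts were used; versions, genome build, annotation and strand settings are not given in the sources used here. The authors deposited whole-number counts per Ensembl gene, with no normalization, which were matched to the 6 libraries by title. They also deposited a mean signal per pool, the mean of its 3 counts, which was not used. The pools were tested against each other in edgeR 4.0.16 under R 4.3.3 (TMM, edgeR's expression filter by group, quasi-likelihood test, pool as the only term). Standard errors come from the fold change and its F statistic. The fit was tested on simulated data. CPM used total counts, and log2 ratios a pseudocount of 0.5. The log2 CPM profiles behind the nearest genes instead used TMM factors and a prior count of 2. The ratio of Pcsk1 to Pcsk1n was not run. Alternatives were DESeq2 1.42.0, limma-voom (limma 3.58.1), other scalings and filters, a replicate block, and each library left out.

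The members and lists were chosen with earlier results of these data known. All members were named, plus the 3 largest called changes of each secretory list and the 3 nearest profiles for the member most changed in each direction. Tshb and Fshb are named as markers at 0 in every library. Other genes named outside this rule are marked where they appear.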

Additional observations from a re-analysis of the deposited data

How the results depend on the processing

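Of 105 refits of the 7 tested members, 102 kept their direction and side of the threshold, and 3 gained a call, all of Vgf: its log2 fold change was 0.72 with upper-quartile factors and 0.72 with limma-voom, and it lay between 0.42 and 0.98 with each library left out, passing without pool B replicate 2. The median over all tested genes moved by -0.14 with total counts alone and by 0.10 with upper-quartile factors. Chga, Cpe and Scg2 stayed higher with pool A under both. Leaving out each library gave 3 to 5 members higher with pool A, where the additions were Pcsk1, which could enter only through pool A, and, without pool B replicate 2, Vgf. It gave 3 to 5 genes of granule membrane and biogenesis higher with pool A, and 3 to 5 further processing enzymes higher with pool B. The members' share of the counts was 1.01% with pool A and 3.98% with pool B when rows with clone-based names were left out of the totals, and 0.374% and 0.258% without Chgb. The log2 ratio of Pcsk2 to Scg5 differed by -0.98, and by -1.69 to 0.30 with each library left out. It reversed without pool B replicate 2, which holds all 5 pool B counts of Pcsk2, and in 4 of 6 libraries the pseudocount sets it. A replicate block gave 2085 calls in favour of pool A and 2476 in favour of pool B, against 2154 and 2546 without it, and changed no member's call. The granule list then had 4 genes higher with pool A in place of 5. Deviations of same-numbered libraries correlated with r of 0.041, -0.019 and 0.020, so no pairing was assumed. Depth limits statements on Pcsk1 and Pcsk2.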
